A study of Arvicanthis niloticus with 59 samples.

Results

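The genes described here are 7 transcription factors of the endoderm-derived organs: the nuclear receptors Hnf4a and Hnf4g, the forkhead factors Foxa1, Foxa2 and Foxa3, and the homeobox factors Cdx1 and Cdx2. They were chosen by their symbols, and each of the 7 was found once among the 18970 genes of the deposited tables, which pair them with mouse identifiers such as ENSMUSG00000017950 for Hnf4a, ENSMUSG00000024619 for Cdx1 and ENSMUSG00000029646 for Cdx2. RNA was measured in 59 libraries of 48 sites in 22 organs of Arvicanthis niloticus, the Nile grass rat, which is active by day. The tissue was healthy and untreated, and 4 animals gave 38 libraries (T3F), 12 (T173F), 8 (T426) and 1 (T424, testis). Polyadenylated RNA was made into TruSeq libraries and sequenced in paired ends. The groups compared were small intestine (duodenum T3F, duodenum T426, jejunum T3F, ileum T3F) and large intestine (cecum T173F, colon T3F, rectum T173F); duodenum, pancreas, renal pelvis and liver, each against the other 9 of 10 sites with a library from each of a pair of animals; glandular and non-glandular stomach; and kidney cortex and medulla.

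HNF4 proteins are nuclear receptors that bind as dimers to genes of lipid transport, glucose production, clotting and bile acid synthesis; in mice, HNF4A acts in hepatocytes, intestinal epithelium, proximal tubule and islets, and HNF4G mainly in the intestinal epithelium. FOXA proteins are forkhead factors that can open closed chromatin, and in mouse embryos they act early in the endoderm that gives rise to liver, pancreas, lung and gut. CDX proteins are the vertebrate relatives of fly caudal. In mice they specify intestine against stomach and pattern the tail end of the embryo, and in the adult they are known from the intestinal epithelium.

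Levels are given in TPM, RSEM's transcript abundance scaled by length and library total, and counts are RSEM's expected counts. Total expected counts ran from 678819 to 41309569 per library, with a median of 16406604. Several libraries went against their labels on marker lists. The library labelled lung T3F had a summed TPM of 162706 over 16 hepatocyte genes and 22.0 over 11 alveolar genes. The library labelled liver T3F had 1125 and 34019.6, so hepatocyte values below come from liver T426, with 144206 over the hepatocyte genes, and from the library labelled lung T3F. Germ cell genes summed to 124492 TPM in retina T426, 47125 in hippocampus T426 and 23001 in femur T426, against 146113 in testis T424. Sciatic nerve T426 held acinar genes at 81604 TPM, and renal pelvis T426 held hepatocyte genes at 28698 TPM. Pancreas T173F had acinar genes at 1632 TPM, against 403420.5 in pancreas T3F. Where a site had a pair of libraries they came from different animals, so p-values measure the spread between these few libraries.

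A single count was worth very different TPM in the 7 genes. The effective length in the tables was 4.87% of that of Hnf4a for Foxa3, 12.9% for Foxa2, 17.3% for Cdx2, 36.2% for Foxa1, 38.3% for Cdx1 and 43.3% for Hnf4g. A Foxa3 count was thus worth 20.5 times the TPM of a Hnf4a count, and 3 Foxa3 counts made 12.5 TPM in duodenum T426 and 1.39 TPM in duodenum T3F. A given TPM of Foxa3 therefore rests on fewer reads than the same TPM of the other genes. Whether the Foxa3 transcript model of the tables is complete is not known here, and its length sets the size of every TPM ratio with Foxa3.

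**Figure D1:**
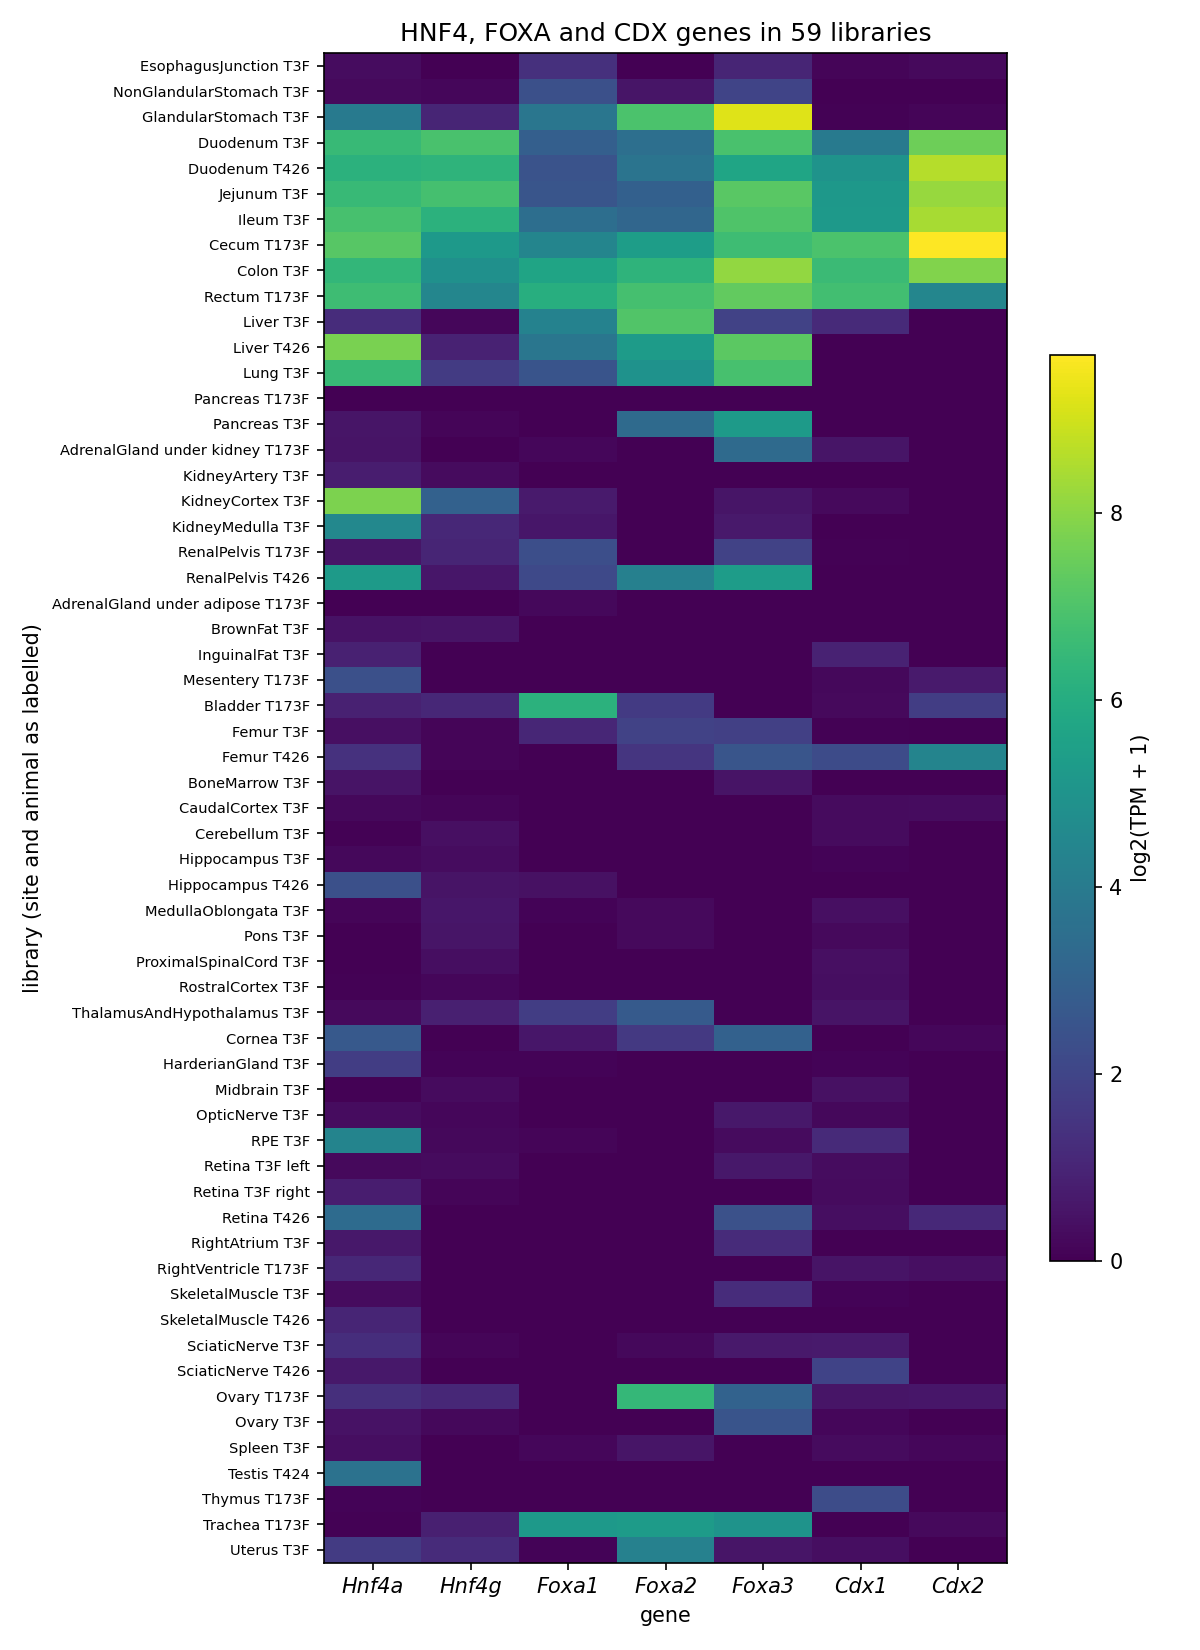
Heat map of log2(TPM + 1) of the 7 genes (across) in all 59 libraries (down the page, named as labelled), grouped by organ. Hnf4g, Cdx1 and Cdx2 were high in the 7 intestine libraries, which held 95.2%, 95.6% and 98.9% of their summed TPM, whereas Hnf4a was also high in kidney cortex and the FOXA genes in trachea, and both in glandular stomach and the hepatocyte-rich libraries.

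The 7 genes fell into narrow and broad patterns, shown in the heat map of all libraries. Cdx2 was the narrowest: the 7 intestine libraries held 98.9% of its TPM summed over the series, and 40 of 59 libraries had 0 counts. Cdx1 and Hnf4g were close to it, with 95.6% and 95.2% of their summed TPM in intestine. For each of these 3 genes, 0 of the 52 other libraries reached the lowest intestine value, a separation found in 0.359% of genes (68 of 18946 at 1 TPM or more in some library). Hnf4a, Foxa3 and Foxa1 were broader, with 51.0%, 48.9% and 47.7% of summed TPM in intestine, and Foxa2 was the broadest on this measure, with 34.7%. Libraries outside intestine at or above the lowest intestine value numbered 3 for Hnf4a, 3 for Foxa3, 6 for Foxa1 and 9 for Foxa2. The median over the 52 other libraries was 0.507 TPM for Hnf4a, 0.335 for Foxa3, 0.142 for Cdx1, 0.127 for Hnf4g and 0 for Foxa1, Foxa2 and Cdx2. At 10 TPM or more stood 15 libraries for Hnf4a, 13 each for Foxa2 and Foxa3, 9 for Foxa1, 8 for Cdx2 and 7 each for Hnf4g and Cdx1.

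Hnf4a, the receptor of liver, gut and kidney, was highest in kidney cortex T3F at 217 TPM and liver T426 at 214 TPM. Cecum (142), ileum (117) and rectum (102) followed. The library labelled lung T3F (92.3), jejunum (91.1) and colon (84.3) lay within 1 SD of the duodenum mean of 82.7 ± 12 TPM (SD, n = 2), so the order among these sites is not separated by the spread of the duodenum pair. A step below came renal pelvis T426 (38.2), kidney medulla (22.3), retinal pigment epithelium (19.6), glandular stomach (14.4) and testis T424 (11.5). Of the 59 libraries, 15 reached 10 TPM, and 33 were under 1 TPM. Scaled by library total alone (CPM) instead of TPM, liver T426 stood first.

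Hnf4g, the paralogue known from intestinal epithelium, was highest in duodenum T3F at 120.5 TPM. Jejunum (112) and ileum (74.1) lay within 1 SD of the duodenum mean of 99.2 ± 30.1 TPM (SD, n = 2). Cecum (36.1), colon (28.2) and rectum (20.6) came next. The highest library outside the gut was kidney cortex at 7.09 TPM, from 133 counts, followed by the library labelled lung T3F at 2.24 TPM. In CPM, jejunum stood first. Liver T426 had 0.906 TPM, from 3 counts, so the liver that was among the highest for Hnf4a had almost no Hnf4g.

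**Figure D2:**
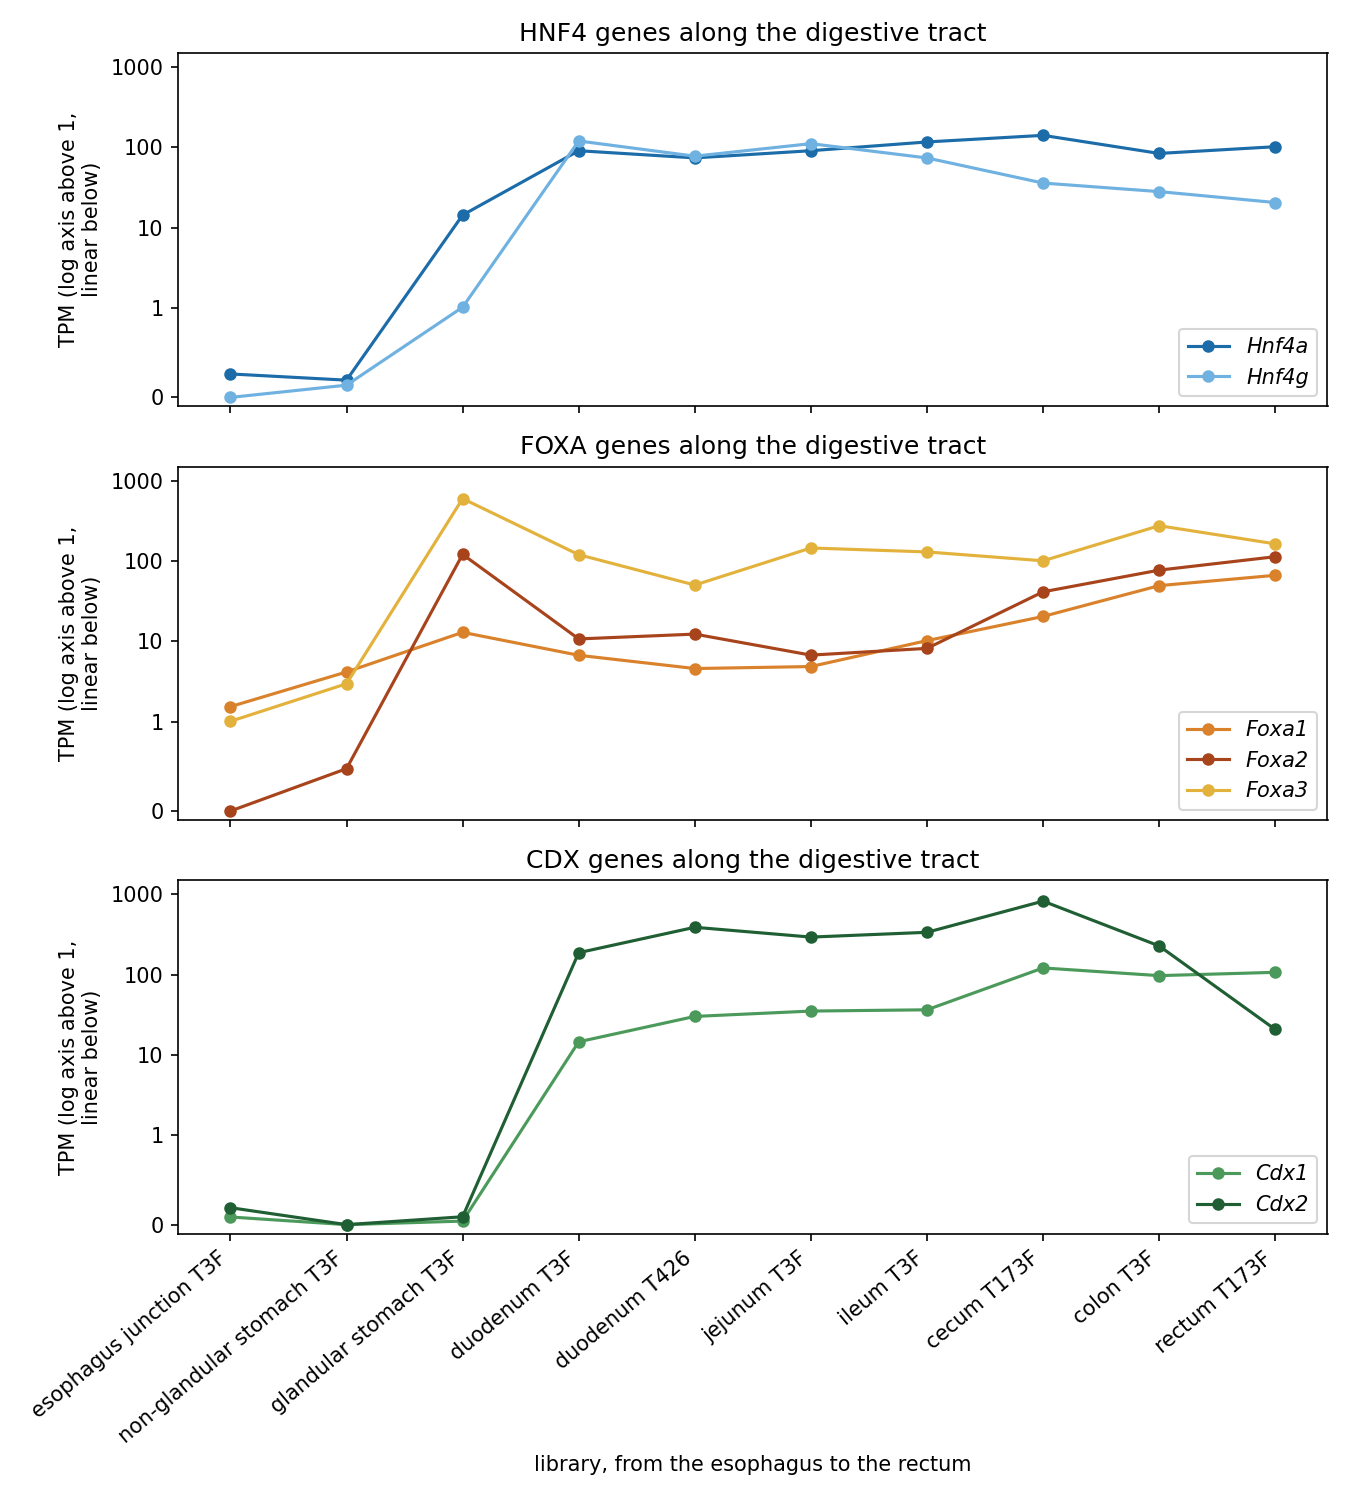
TPM of the 7 genes along the gut, from the esophageal junction through stomach and intestine to the rectum, in panels for HNF4, FOXA and CDX (vertical axis logarithmic above 1 TPM and linear below; each point is a library). The CDX genes were at 0.19 TPM or less before the duodenum and at 14.6 TPM or more from it onward, while Foxa2 and Foxa3 were highest in glandular stomach and in colon or rectum.

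Along the gut the 3 families followed different courses, as the plot of levels along the gut shows. At the esophageal junction and in non-glandular stomach, both lined by stratified epithelium, Hnf4a stood at 0.26 and 0.19 TPM and Cdx2 at 0.19 and 0 TPM. Glandular stomach had Hnf4a at 14.4 TPM, Foxa1 at 13.0, Foxa2 at 121 and Foxa3 at 600.1 TPM, the highest Foxa3 value of the series, from 1912 counts. Its Cdx1 and Cdx2 rested on a single count each, at 0.0399 and 0.0884 TPM.

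Of the FOXA genes, Foxa1, a factor of gut, airway and bladder epithelium, had 6.72 and 4.60 TPM in the duodenum libraries T3F and T426, 4.87 in jejunum, 10.2 in ileum, 20.5 in cecum, 49.5 in colon and 66.5 in rectum. The low end was thus in duodenum and jejunum, and the 3 large intestine libraries were above all 4 small intestine libraries. Foxa2, which acts from early endoderm on, had 10.7 and 12.3 TPM in duodenum, 6.76 in jejunum, 8.20 in ileum, 41.5 in cecum, 77.2 in colon and 113 in rectum. The groups did not overlap here either, but the share of all genes separated in this way was not counted. On log2 TPM the median of all genes tested was itself lower in small intestine, at -0.80. Foxa3 had 120.3 and 50.3 TPM in duodenum, 146 in jejunum, 130.0 in ileum, 101 in cecum, 276 in colon and 164 in rectum, and the ranges of small and large intestine overlapped. Duodenum T426 rested on 12 Foxa3 counts, 8.18 Foxa1 counts and 7.81 Foxa2 counts.

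The CDX genes appeared at the duodenum. Cdx1, known from crypt epithelium, had 14.6 and 30.3 TPM in the duodenum libraries T3F and T426, 35.3 in jejunum, 36.6 in ileum, 121 in cecum, 97.4 in colon and 107 in rectum. Large intestine stood above small intestine with no overlap, and here too the share of all genes separated in this way was not counted. Cdx2, the main intestinal specifier in mice, had 188 and 389.5 TPM in duodenum, 294 in jejunum, 337 in ileum, 824 in cecum, 228 in colon and 20.8 in rectum, from 79.0 counts. Cecum was the highest and rectum the lowest library for Cdx2, so large intestine spanned the whole small intestine range.

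**Figure D3:**
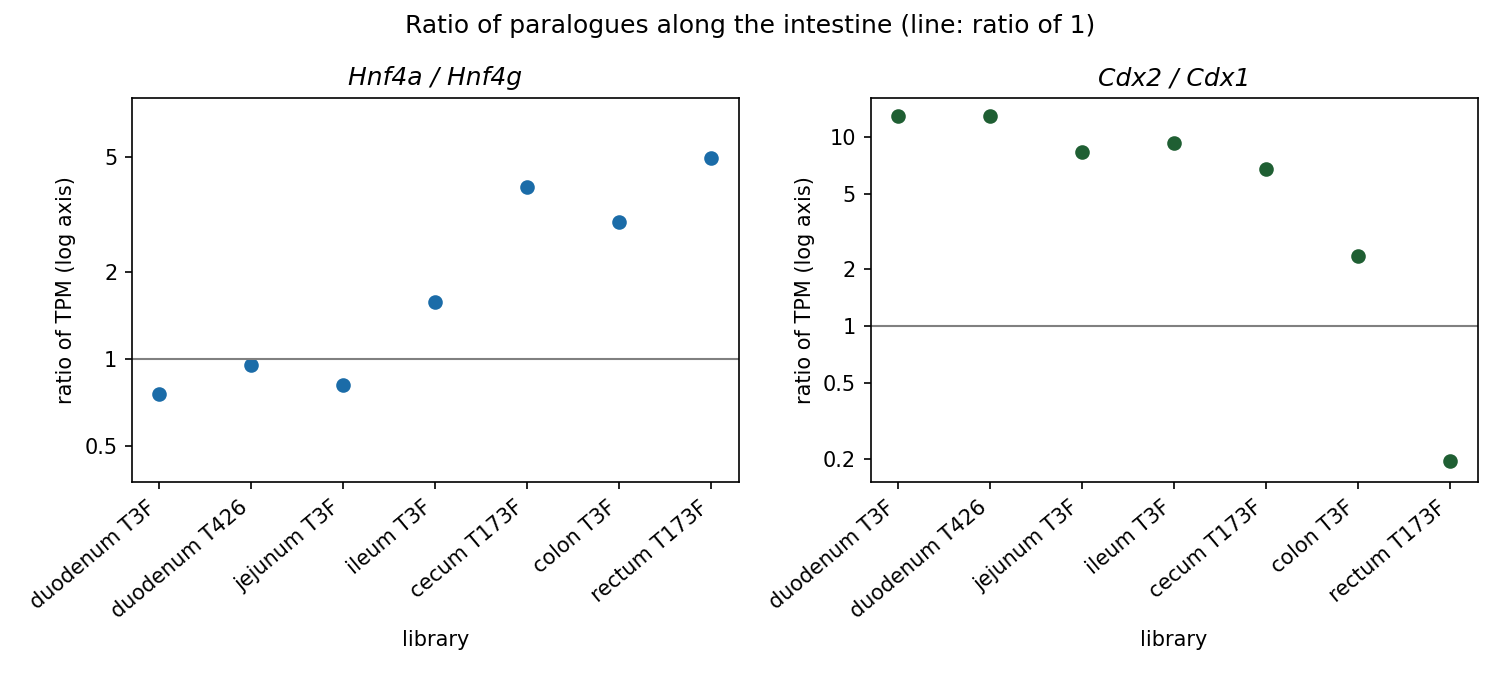
Ratios of TPM within a library, Hnf4a over Hnf4g and Cdx2 over Cdx1, in the 7 intestine libraries from duodenum to rectum (logarithmic axis; each point is a library). Hnf4a over Hnf4g was between 0.756 and 1.58 in small intestine and between 2.99 and 4.95 in large intestine, and Cdx2 over Cdx1 was 12.9 in both duodenum libraries and 0.194 in rectum.

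Paralogues were balanced differently along the intestine, as the plot of ratios within libraries shows. Hnf4a over Hnf4g was 0.756 in duodenum T3F, 0.952 in duodenum T426, 0.816 in jejunum, 1.58 in ileum, 3.93 in cecum, 2.99 in colon and 4.95 in rectum. It was 14.0 in glandular stomach, 30.7 in kidney cortex and 20.1 in kidney medulla, but 0.450 in renal pelvis T173F and 0.742 in bladder T173F, where Hnf4a was under 1 TPM. Cdx2 over Cdx1 was 12.9 in each duodenum library, 8.33 in jejunum, 9.22 in ileum, 6.79 in cecum, 2.34 in colon and 0.194 in rectum, so rectum alone among the 7 libraries had more Cdx1 than Cdx2 per length. Foxa3 over Foxa2 ran from 4.08 to 21.6 in small intestine and from 1.44 to 3.57 in large intestine. Foxa2 over Foxa1 stayed between 0.801 and 2.68 in all 7 libraries.

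Set against each other, small intestine had more Hnf4g and less Foxa1 and Foxa2 than large intestine. Each group mixes segments, several of them from the same animal, so SD and p-values measure the spread of segments and animals together. Hnf4g averaged 96.0 ± 23.5 TPM in small and 28.3 ± 7.71 TPM in large intestine (SD, n = 4 and 3), and edgeR's quasi-likelihood test gave a log2 fold change of 2.50 ± 0.34 (SE; adjusted p = 0.00673). Foxa2 averaged 9.51 ± 2.51 and 77.4 ± 36.0 TPM, a log2 fold change of -2.20 ± 0.34 (edgeR, adjusted p = 0.00933). Foxa1 averaged 6.61 ± 2.60 and 45.5 ± 23.3 TPM, a log2 fold change of -1.85 ± 0.42 (edgeR, adjusted p = 0.0241). These 3 of 7 genes passed, and over all genes tested 17.5% did (2561 of 14606, with 1239 higher and 1322 lower). Bulk tissue was measured, so fewer cells of a type and less RNA per cell cannot be told apart.

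The other 4 genes did not pass between small and large intestine. Cdx1 averaged 29.2 ± 10.1 TPM in small and 109 ± 12.1 TPM in large intestine, and its log2 fold change was -1.10 ± 0.37 (edgeR, adjusted p = 0.0758; DESeq2, -1.11 with adjusted p = 0.0344). Hnf4a averaged 93.4 ± 17.7 and 109 ± 29.3 TPM (log2 fold change 0.53 ± 0.36; edgeR, adjusted p = 0.322). Foxa3 averaged 112 ± 42.2 and 180.2 ± 88.6 TPM (0.21 ± 0.39; edgeR, adjusted p = 0.731), and Cdx2 averaged 302 ± 85.6 and 358 ± 417 TPM (0.38 ± 0.98; edgeR, adjusted p = 0.811). For Hnf4a and Foxa3 the sign turned with the scale: on log2 TPM the differences were -0.21 and -0.68, where the median of all genes tested was -0.80, and under edgeR's TMM scaling that median was -0.03.

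The Foxa1 call was lost without colon, either duodenum library, jejunum or rectum (edgeR, adjusted p from 0.0535 to 0.0943), each left out in turn. Cecum and rectum came from T173F and the small intestine from T3F and T426, so animal and site cannot be told apart for them; with animal as a block 0 of the 7 genes and 4 of all genes passed, and the log2 fold changes were 2.80 for Hnf4g, -1.77 for Foxa1 and -2.20 for Foxa2 (edgeR, adjusted p = 0.147, 0.245 and 0.146). Within T3F, the 3 small intestine libraries and colon were ordered as in the whole comparison: Hnf4g had 120.5, 112 and 74.1 TPM against 28.2 in colon, and Foxa2 had 10.7, 6.76 and 8.20 TPM against 77.2 in colon. Foxa1 had 6.72, 4.87 and 10.2 TPM in these small intestine libraries, against 49.5 in colon.

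Other cell types moved with the comparison. Of 8 smooth muscle genes, 0 were higher and 7 lower in small intestine, with Acta2 at a log2 fold change of -2.07 and Myh11 at -2.65, and the summed TPM of the list was 811 to 1368 in small and 5169 to 19086 in large intestine. Airway genes summed to 4071 TPM in colon and 5247 TPM in rectum, acinar genes to 12718 TPM in colon, and squamous genes to 8642 TPM in rectum. The airway sums came from few genes. In colon 3 of 9 were at 1 TPM or more and in rectum 6 of 9, with medians of 0.689 and 2.47 TPM. The part of these lists in the Foxa1, Foxa2 and Hnf4g differences was not tested.

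Genes known in mouse or human as HNF4 targets of liver, many of them lipid carriers that the small intestine also makes, were tested in the same comparison. Of 21 on the list, 14 passed the low-count filter, which keeps a gene near 0 in large intestine only if small intestine held it. Of these 14, 10 were higher and 0 lower in small intestine, with a median log2 fold change of 6.89 against -0.03 over all genes tested. They included Apoa1, the main HDL protein, at 6.74 ± 1.20 (edgeR, adjusted p = 0.0132), Apoa4, a chylomicron protein, at 8.44 ± 2.04 (0.0296), Mttp, which loads lipid onto apolipoprotein B, at 8.01 ± 1.10 (0.00701), and Apob itself at 8.21 ± 1.28 (0.00933). Of 13 enterocyte genes, 8 were higher and 0 lower, with a median of 4.83, and 2 of the 4 named here, Apoa4 and Mttp, are also on that list. Of 14 liver transcription factors tested, 6 were higher and 1 lower, with a median of 1.59, among them the lipid regulator Creb3l3 at 7.37 ± 0.53 (edgeR, adjusted p = 0.00118) and Cebpa at 1.52 ± 0.26 (0.0119).

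Targets known from the gut itself were set side by side with these. Of 23 gut targets of HNF4 and CDX, 6 were higher and 0 lower in small intestine, with a median log2 fold change of 1.03; the trefoil factor Tff3 (0.11), the hormone precursor Guca2a (0.89), the lectin Lgals4 (1.03) and carbonic anhydrase Car1 (-9.07; edgeR, adjusted p = 0.0623) did not pass. Of 16 gut transcription factors tested, 3 were higher and 3 lower. Named after their values were seen, Gata4 (7.75), Gata5 (6.36) and Gata6 (1.65) were higher, and Klf4 (-1.14) and Tcf7l2 (-1.34) were among those lower. Klf5 (-0.92), Vdr (1.02), Isx (0.91) and Atoh1 (-0.38), the 4 most abundant of the list, did not pass. Of 15 FOXA targets tested, 2 were higher and 1 lower, with a median of 0.21: Apoa1 again, G6pc, named after its value was seen, at 8.31, and the airway secretory gene Scgb1a1 at -11.98 ± 1.95 (edgeR, adjusted p = 0.0107).

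**Figure D4:**
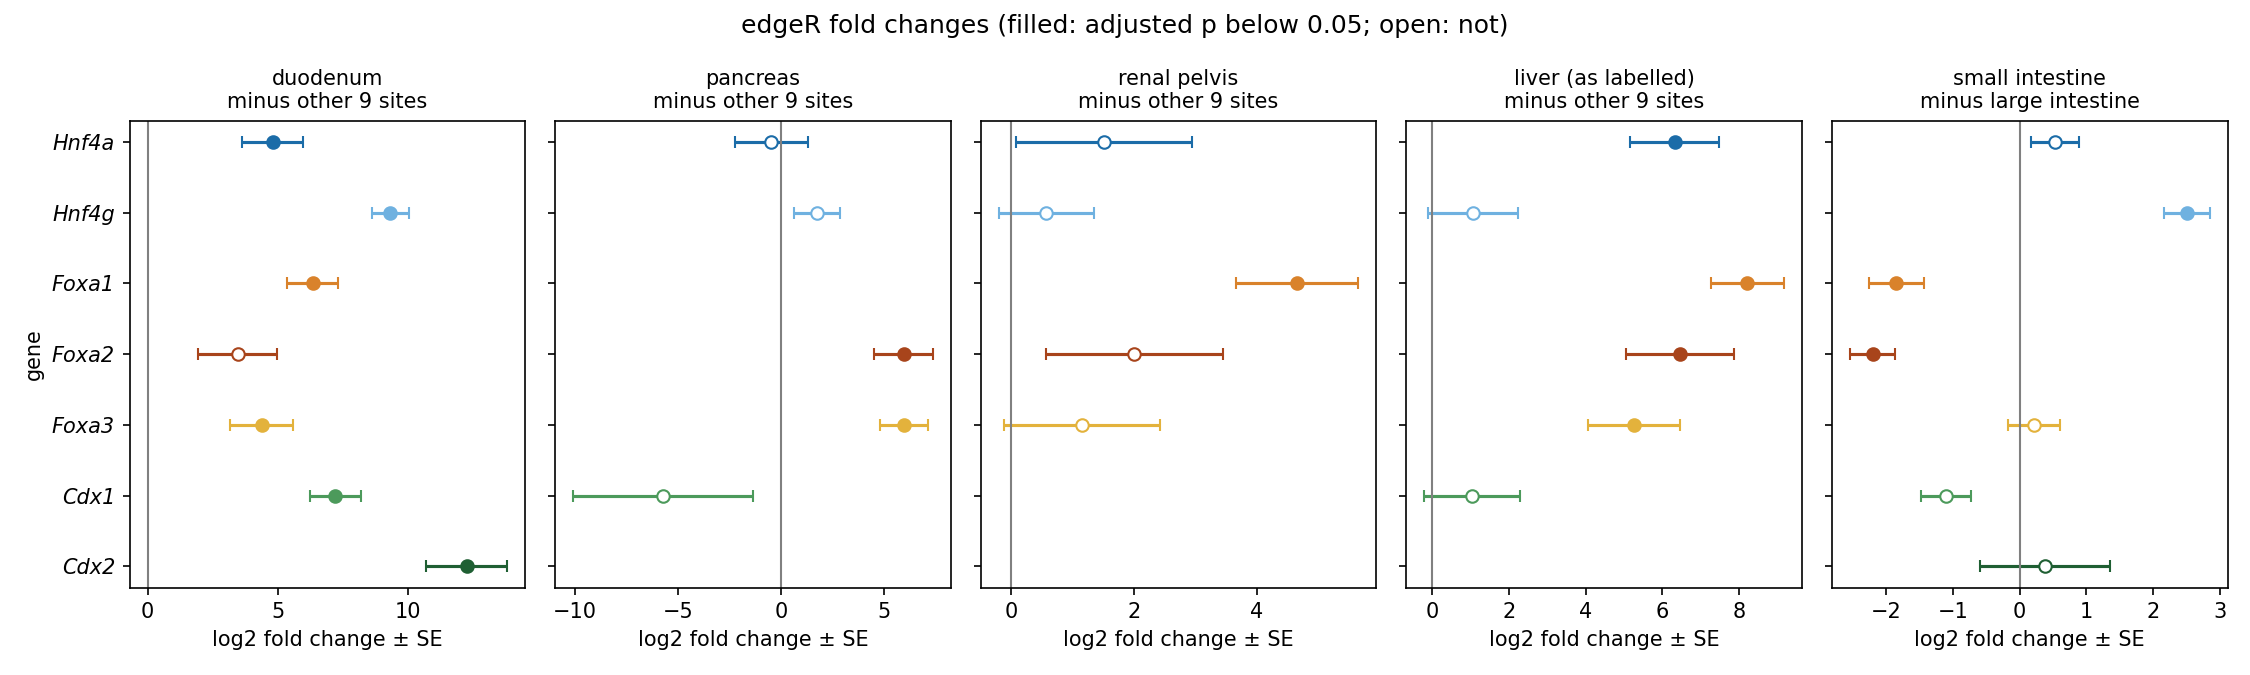
Log2 fold changes of the 7 genes ± SE from edgeR's quasi-likelihood test in 5 comparisons, each panel with its own axis: duodenum, pancreas, renal pelvis and liver against the other 9 sites, and small against large intestine. Filled points had an adjusted p below 0.05 and open points did not; values with an SE above 5 were left out. Duodenum had 6 filled points (8.97% of all genes were called), pancreas 2 (13.1%), renal pelvis 1 (6.54%), liver 4 (8.53%) and small intestine 3 (17.5%).

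Across the 10 sites with a pair of animals (femur, hippocampus, retina, duodenum, renal pelvis, liver, skeletal muscle, sciatic nerve, ovary and pancreas), 6 of the 7 genes differed among sites by edgeR's quasi-likelihood test and Foxa2 did not (adjusted p = 0.0673). Over all genes tested, 41.2% differed (7236 of 17564). The adjusted p was 0.000119 for Hnf4g, 0.00551 for Cdx1, 0.00584 for Foxa1, 0.0178 for Cdx2, 0.0271 for Foxa3 and 0.0299 for Hnf4a.

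Duodenum stood above the average of the other 9 sites in both HNF4 and both CDX genes, Foxa1 and Foxa3, though not above every site. Hnf4g had 120.5 and 77.9 TPM in duodenum, against a lowest, median and highest of 0, 0.109 and 1.11 TPM in 19 libraries of the other sites. Cdx2 had 188 and 389.5 TPM, against 0, 0 and 19.5 TPM, and Cdx1 had 14.6 and 30.3 TPM, against 0, 0.0695 and 3.67 TPM. In these 3 genes no library of the other sites reached either duodenum library, as in 3.66% of genes (682 of 18656), and the highest for both CDX genes was femur T426. The log2 fold changes were 9.32 ± 0.69 for Hnf4g (edgeR, adjusted p = 2.39e-06), 12.24 ± 1.57 for Cdx2 (0.00128; 16 of the 19 libraries had 0 counts, so its size depends on the fit) and 7.20 ± 0.97 for Cdx1 (0.000256).

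For the broader genes some other sites overlapped duodenum. Hnf4a had 91.1 and 74.2 TPM in duodenum, against a lowest, median and highest of 0, 0.726 and 214 TPM in the other sites, where liver T426 exceeded it and renal pelvis T426, at 38.2 TPM, came next. Foxa1 had 6.72 and 4.60 TPM, against 0, 0 and 18.5 TPM. Foxa3 had 120.3 and 50.3 TPM, against 0, 2.59 and 150.5 TPM, and Foxa2 had 10.7 and 12.3 TPM, against 0, 0 and 131 TPM. The libraries at or above the lower duodenum value numbered 1 for Hnf4a, 2 for Foxa1, 1 for Foxa3 and 4 for Foxa2. The log2 fold changes were 4.80 ± 1.17 for Hnf4a (edgeR, adjusted p = 0.0162), 6.33 ± 0.98 for Foxa1 (0.00257), 4.38 ± 1.21 for Foxa3 (0.0360) and 3.46 ± 1.52 for Foxa2 (0.227). Thus 6 of 7 genes were higher and 0 lower, and over all genes 8.97% were called (1465 higher and 111 lower); the median log2 fold change was 6.33 over the 7 genes and -0.125 over all genes.

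These calls were not equally firm. DESeq2 called Foxa2 (log2 fold change 7.90, adjusted p = 0.00967) and did not call Foxa1 (5.19, 0.0914) or Cdx2 (10.51, 0.121). The Foxa3 call was lost without any of 12 of the 20 libraries, the Hnf4a call without either duodenum library (edgeR, adjusted p = 0.148 and 0.0842), and the Foxa1 call without duodenum T3F (0.0501).

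The genes that HNF4 and CDX are known to drive in mouse gut were also high in duodenum. The other 9 sites included no gut segment, so gut genes of any kind could come out higher in duodenum. Goblet and Paneth cell genes did so in 8 of 9 and gastric gland genes in 9 of 11. The duodenum pair was split for gastric gland genes, which summed to 8535 TPM in T3F and 301 TPM in T426. Of 23 gut targets, 21 were higher and 0 lower, with a median log2 fold change of 9.61; among them were the fatty acid binding proteins Fabp1 (11.81 ± 1.72) and Fabp2 (12.14 ± 1.25), Lgals4 (9.64 ± 1.05) and Tff3 (10.98 ± 1.31). The 2 that did not pass, Car1 and Lgr5, were named after their values were seen. Enterocyte genes were higher in 13 of 13, with a median of 9.81. Of 17 gut transcription factors tested, 10 were higher, including Vdr, the vitamin D receptor (7.73 ± 0.48; edgeR, adjusted p = 2.37e-07), Pdx1, of duodenum and pancreas (9.30 ± 1.30), and Isx, which represses carotenoid conversion (9.27 ± 1.65); Klf5 (2.74) did not pass. Of 16 liver transcription factors 10 were higher, among them Creb3l3 (8.23 ± 1.04) and Nr1i3 (9.99 ± 1.56). Of 21 HNF4 targets of liver 11 were higher, and of 22 FOXA targets 9 were higher. The lists share genes, such as Isx, Gata4 and Apoa1.

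Stomach and duodenum were compared in the fit of all 48 sites, where stomach libraries stand alone and are assumed to vary like the replicated sites. In glandular against non-glandular stomach, 0 of the 7 genes and 0% of 18323 genes were called by edgeR, with 869 at an unadjusted p under 0.05 and 631 called by DESeq2, of which 0 were among the 7. The levels differed widely between these libraries. Hnf4a had 943 counts in glandular and 13 in non-glandular stomach, an 88.6-fold CPM ratio (exact 95% counting interval 51.5 to 167). The ratio was 313 (122 to 1149) for Foxa2, 233 (127 to 488) for Foxa3, 8.85 (3.11 to 34.7) for Hnf4g and 3.69 (2.94 to 4.66) for Foxa1. These intervals, here and below, cover counting error in these libraries and not the spread between animals. The squamous list summed to 847 TPM in glandular and 43179 TPM in non-glandular stomach.

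In duodenum against glandular stomach, again 0 of the 7 and 0% of 18323 genes were called by edgeR, with 1616 at an unadjusted p under 0.05; DESeq2 called 1658 genes and 2 of the 7, Hnf4g (adjusted p = 0.0141) and Cdx1 (0.0183). Without the libraries that went against their labels, edgeR called 3 of the 7: Hnf4g (adjusted p = 0.0329), Cdx1 (0.0276) and Cdx2 (0.0196), among 1298 genes in all. Within T3F, duodenum had 81.2 times the Hnf4g of glandular stomach (exact 95% counting interval 56.4 to 122) and 4.36 times the Hnf4a (4.06 to 4.68). Cdx1 and Cdx2 had 249 and 1446 counts in duodenum and a single count each in glandular stomach, ratios of 253 (44.9 to 10019) and 1467 (263 to 57993). The FOXA genes lay the other way, at 0.356 (0.283 to 0.444) for Foxa1, 0.0614 (0.0468 to 0.0794) for Foxa2 and 0.138 (0.121 to 0.157) for Foxa3. In these libraries duodenum thus held more HNF4 and CDX RNA and less FOXA RNA. Gastric gland genes summed to 8535 TPM in duodenum T3F and 447504 TPM in glandular stomach. Their part in these ratios was not tested.

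**Figure D5:**
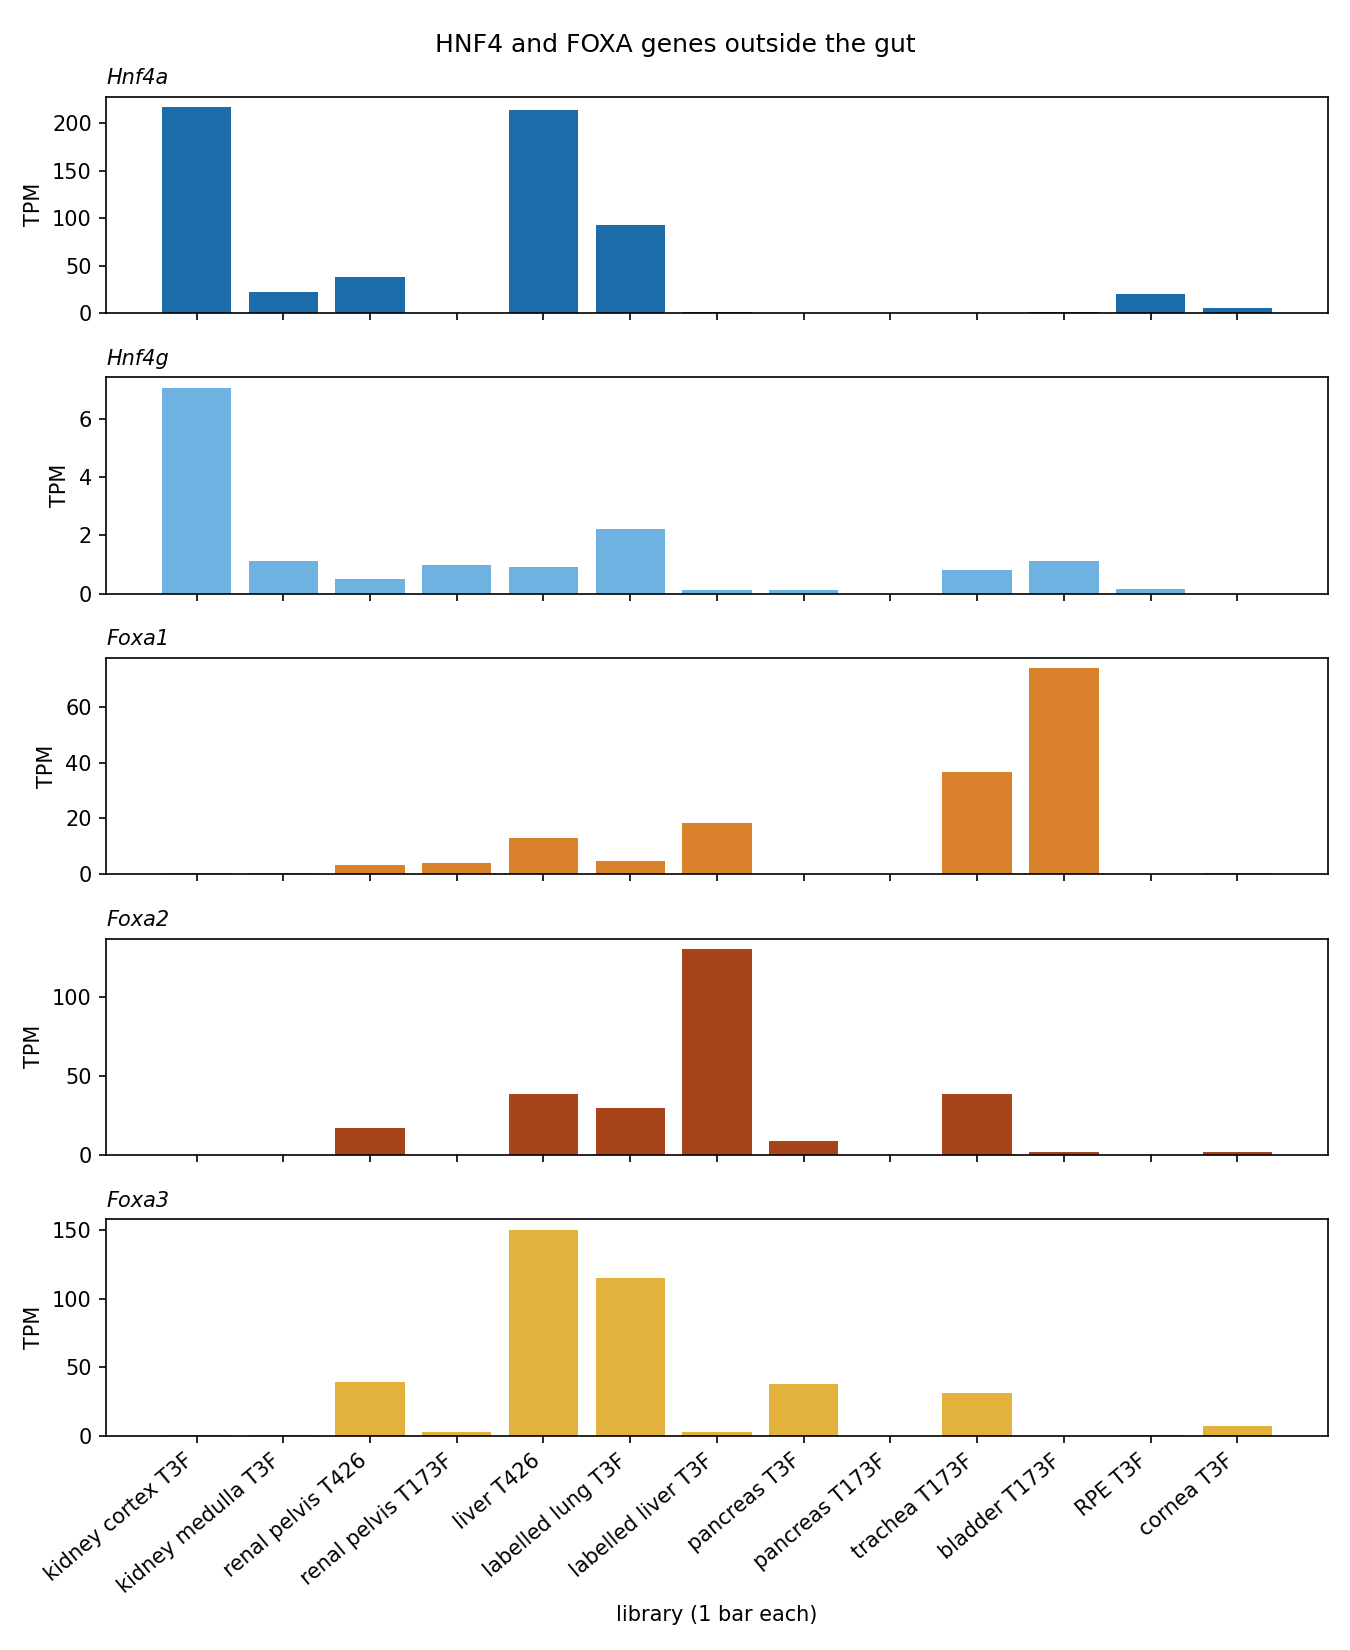
TPM of Hnf4a, Hnf4g, Foxa1, Foxa2 and Foxa3 (panels, bars from 0) in 13 libraries outside the gut, each panel with its own scale. Hnf4a was high in kidney cortex (217) and liver T426 (214), Foxa1 in bladder (73.7) and trachea (36.7), and Foxa2 in the library labelled liver T3F (131), trachea (39.0) and liver T426 (38.8).

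In hepatocyte-rich libraries Hnf4a was the leading HNF4 gene and all 3 FOXA genes were found together, as the bars of levels outside the gut show. Liver T426 had 214 TPM of Hnf4a, 12.8 of Foxa1, 38.8 of Foxa2 and 150.5 of Foxa3, from 1636, 35.5, 38.3 and 56.0 counts. The library labelled lung T3F had 92.3, 4.76, 29.9 and 115 TPM. Liver T426 over this library gave CPM ratios of 2.52 for Hnf4a (exact 95% counting interval 2.38 to 2.66), 2.97 for Foxa1 (1.97 to 4.38), 1.40 for Foxa2 (0.965 to 1.98) and 1.41 for Foxa3 (1.05 to 1.88). Both held albumin, Alb, at 54236 and 71562 TPM. The library labelled liver T3F had Alb at 398 TPM, Hnf4a at 1.38 TPM and the airway gene Scgb1a1 at 26793 TPM, with Foxa1 at 18.5 and Foxa2 at 131 TPM, the highest Foxa2 value of the series in TPM; in CPM, glandular stomach stood first.

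With liver taken as labelled, the pair against the other 9 sites gave 4 of 7 genes higher by edgeR, where 8.53% of all genes were called. Foxa1 had 12.8 TPM in liver T426 and 18.5 in the library labelled liver T3F, against a lowest, median and highest of 0, 0 and 6.72 TPM elsewhere. Its log2 fold change was 8.21 ± 0.96 (edgeR, adjusted p = 0.00062). Foxa2 had 38.8 and 131 TPM, against 0, 0 and 87.3 TPM (6.46 ± 1.41; edgeR, adjusted p = 0.0129), and ovary T173F overlapped them. With 11 of the 19 other libraries at 0 counts, the size of the Foxa2 change depended on the fit, and DESeq2 gave 10.97. Hnf4a had 214 and 1.38 TPM, against 0, 0.726 and 91.1 TPM (6.32 ± 1.15; edgeR, adjusted p = 0.00241), and Foxa3 had 150.5 and 2.73 TPM, against 0, 2.59 and 120.3 TPM (5.26 ± 1.20; edgeR, adjusted p = 0.0129). The liver pair itself was thus split for Hnf4a and Foxa3, and without liver T426 these fold changes turned to -1.74 and -1.23. Without pancreas T173F and the libraries labelled liver T3F and lung T3F, liver T426 was the lone liver library, assumed to vary like the other sites, and the same 4 genes were called, at 7.19 for Hnf4a, 8.69 for Foxa1, 6.32 for Foxa2 and 6.11 for Foxa3. Animal as a block ended the calls of Hnf4a (4.26; edgeR, adjusted p = 0.0793), Foxa2 (5.84; 0.0544) and Foxa3 (3.74; 0.202), and Foxa2 was lost without either liver library (0.0523 and 0.0734). Hnf4g (1.06) and Cdx1 (1.04) did not pass.

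The hepatocyte and liver transcription factor lists summed higher in liver T426 than in the library labelled liver T3F. HNF4 targets of liver were higher in 21 of 21, with a median log2 fold change of 8.80 against 0.045 over all genes, and hepatocyte genes in 16 of 16. The hepatocyte list, like the alveolar list below, had already been used to judge these libraries, so its count restates that choice. Of 16 liver transcription factors 11 were higher, among them Cebpa (4.57 ± 0.66), Cebpb (2.42 ± 0.59), Nr0b2 (5.38 ± 1.29) and Creb3l3 (6.66 ± 1.05). Of 22 FOXA targets 11 were higher and 2 lower. This list summed to 29730 TPM in liver T426, with 6 of 22 genes at 1 TPM or more. In the library labelled liver T3F it summed to 54412 TPM, with 14 of 22. Of that sum, 26793 TPM came from the airway gene Scgb1a1. The FOXA target list also shares Ttr with the hepatocyte list. Its count and sums are thus not fully separate from the markers used to judge these libraries. Alveolar genes were higher in 10 of 11, and the library labelled liver T3F held 34019.6 TPM of that list; their part in the FOXA calls was not tested.

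Kidney held Hnf4a with little else of the 7 genes. Hnf4a had 9411 counts in cortex and 786 in medulla, 217 and 22.3 TPM, a 9.96-fold CPM ratio (exact 95% counting interval 9.26 to 10.7). Hnf4g had 7.09 and 1.11 TPM, a 6.51-fold ratio (3.92 to 11.5), and Foxa1 had 0.64 and 0.52 TPM, a ratio of 1.19 (0.409 to 3.68). Foxa2 had 0 counts in both libraries. In cortex against medulla 0 of the 7 and 0% of 18323 genes were called by edgeR, with 206 at an unadjusted p under 0.05; DESeq2 called 86 genes and 0 of the 7. Proximal tubule genes, the segment where HNF4A is known in mice, summed to 6973 TPM in cortex and 503 TPM in medulla; their part in the Hnf4a ratio was not tested.

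Renal pelvis was called in 1 of 7 genes against the other 9 sites, Foxa1, where 6.54% of all genes were called by edgeR. Foxa1 had 4.05 and 3.43 TPM in renal pelvis T173F and T426, from 78.2 and 11.4 counts, against a lowest, median and highest of 0, 0 and 18.5 TPM elsewhere, a log2 fold change of 4.66 ± 0.99 (edgeR, adjusted p = 0.0222). Liver T426, the library labelled liver T3F and both duodenum libraries were at or above the lower value. DESeq2 (3.49, adjusted p = 0.378) and animal as a block (edgeR, 4.49, adjusted p = 0.141) ended this call, as did leaving out either renal pelvis library (0.148 and 0.113) or either duodenum library (up to 0.0519). Urothelial genes summed to 1966 and 1368 TPM in the renal pelvis libraries T173F and T426, and 5 of 9 were higher than in the other sites. This sum is not particular to urothelium, since cornea had 32701 TPM of the list, with 4 of 9 genes at 1 TPM or more. Distal nephron genes summed to 11028 and 10903 TPM in the same renal pelvis libraries, and 10 of 10 tested were higher. The part of either list in the Foxa1 call was not tested.

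The renal pelvis pair was split for the liver-type members. Hnf4a had 38.2 TPM in T426 and 0.45 TPM in T173F, a 91.3-fold CPM ratio (exact 95% counting interval 60.4 to 144). Foxa3 had 39.6 and 2.74 TPM, a 16.1-fold ratio (6.40 to 45.5), and Foxa2 had 17.4 TPM in T426, from 21 counts, and 0 counts in T173F. Hepatocyte genes summed to 28698 TPM in T426, with 16 of 16 at 1 TPM or more, and to 170.2 TPM in T173F, with 6 of 16; their part in these ratios was not tested. Without this and the other libraries that went against their labels, the Hnf4a log2 fold change of renal pelvis against the other sites was -3.07, against 1.52 with them, and neither passed.

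Pancreas was called in 2 of 7 genes against the other 9 sites, Foxa2 and Foxa3, where 13.1% of all genes were called by edgeR. Foxa2 had 9.08 TPM in pancreas T3F, from 124 counts, and 0 in T173F, against a lowest, median and highest of 0, 0 and 131 TPM elsewhere (log2 fold change 5.94 ± 1.42; edgeR, adjusted p = 0.0152; 10.48 by DESeq2). Foxa3 had 37.8 TPM in T3F, from 195 counts, and 0 in T173F, against 0, 2.73 and 150.5 TPM elsewhere (5.95 ± 1.15; edgeR, adjusted p = 0.00286). All 7 genes had 0 counts in pancreas T173F, where 3 counts of Foxa3 make 9.03 TPM, so both calls rest on pancreas T3F: without it the log2 fold changes were -5.44 and -6.09. The Foxa2 call also ended with animal as a block (6.21; edgeR, adjusted p = 0.110) and without pancreas T173F and the libraries labelled liver T3F and lung T3F (6.90; 0.0685) or also without the doubtful T426 libraries (7.98; 0.0533). Hnf4a, known in mouse islets and acini, had 0.475 TPM in T3F and did not pass (-0.47).

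In pancreas T3F the acinar genes summed to 403420.5 TPM and the 10 most abundant genes of any kind held 72.9% of TPM. Islet genes summed to 23868 TPM, against 378 TPM in T173F. Lists of other tissues were also called in this pair, from 0 of 8 smooth muscle genes to 5 of 10 distal nephron genes higher. A count of FOXA targets within that range is thus not particular to them. Of 22 FOXA targets 8 were higher in pancreas, among them the hormone gene Gcg (11.86 ± 1.04; edgeR, adjusted p = 7.59e-06), the carrier protein gene Ttr (4.64 ± 1.36; 0.0348) and the chloride channel gene Cftr (6.85 ± 0.94; 0.000144). Islet genes were higher in 10 of 11, including Pdx1 (7.47 ± 1.32; 0.00308).

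FOXA genes were also found in epithelial organs that derive from endoderm outside the gut. Foxa1 was highest in bladder T173F, at 73.7 TPM from 383 counts, with Foxa2 at 2.17 TPM there, and urothelial genes summed to 17669 TPM. Trachea T173F had all 3, with Foxa1 at 36.7, Foxa2 at 39.0 and Foxa3 at 30.9 TPM, beside airway genes at 122630.4 TPM. The HNF4 and CDX genes were each under 1 TPM in trachea.

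Ovary, uterus and testis differed in the members they held. Ovary T173F had 87.3 TPM of Foxa2, from 257 counts, and ovary T3F had 0, while Foxa3 had 7.22 and 4.78 TPM in these libraries. Foxj1, a factor of ciliated cells, had 210.4 TPM in ovary T173F and 2.93 TPM in ovary T3F. The part of ciliated cells in the Foxa2 difference was not tested. Uterus T3F had 18.1 TPM of Foxa2, a gene known in mice from uterine glands. Testis T424 had Hnf4a at 11.5 TPM, from 45.0 counts.

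A few further libraries held single members. Retinal pigment epithelium T3F had Hnf4a at 19.6 TPM, from 1767 counts, with Hnf4g under 1 TPM; of 16 hepatocyte genes 4 were at 1 TPM or more there, and Ttr, which this epithelium also makes, gave 34260 of the 34308 TPM. Cornea T3F had Hnf4a at 5.45 and Foxa3 at 7.02 TPM, beside hepatocyte genes at 9238 TPM with 16 of 16 at 1 TPM or more. The thalamus and hypothalamus library had Foxa2 at 5.66 and Foxa1 at 2.35 TPM; both are known in mice from midbrain dopamine neurons, and both had 0 counts in the midbrain library. Femur T426 had Cdx2 at 19.5 TPM, from 72.0 counts, and Cdx1 at 3.67 TPM, beside goblet and Paneth cell genes at 2080.4 TPM, and femur T3F had Cdx2 at 0. Thymus T173F had Cdx1 at 3.75 TPM, the highest value of that gene outside the intestine. Whether other tissue entered these libraries was not tested.

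Across all 59 libraries, the genes closest in pattern to each member were found by Pearson's r of log2(TPM + 1) over 18050 genes, given as a description, since the libraries share animals and differ in depth and cell make-up. For Hnf4a they included Iyd (0.907), Nr1i2 (0.900), Anks4b (0.885) and Entpd8 (0.877). For Hnf4g they were Tubal3 (0.952), Eps8l3 (0.948), Trim31 (0.944), Vil1, a brush border protein gene (0.944), and Ms4a12 (0.942). Cdx1 had Atoh1, the secretory lineage factor (0.959), Trim31 (0.945), Adgrg7 (0.933), Eps8l3 (0.929) and Myo1a (0.923), and Cdx2 had Trim31 (0.974), Tubal3 (0.966), Gm609 (0.964), Eps8l3 (0.960) and Adgrg7 (0.959). Trim31 and Eps8l3 were thus on the lists of all 3 narrow genes.

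The FOXA genes had looser neighbours over the 59 libraries. Foxa1 had Capn13 (0.799), Foxf1 (0.798), Cutal (0.771), Areg (0.770) and Noxa1 (0.748). Foxa2 had Cutal (0.800), Kcne3 (0.771), Creb3l4 (0.753), Ccl20 (0.736) and Pigr (0.733). Foxa3 had Nr1i2, the xenobiotic receptor PXR (0.857), Ugt2b34 (0.855), Cyp2d40 (0.849), Hsd17b6 (0.840) and Entpd8 (0.831), sharing Nr1i2 and Entpd8 with Hnf4a. Between members, r was 0.917 for Cdx1 with Cdx2, 0.912 for Hnf4g with Cdx2, 0.848 for Hnf4g with Cdx1, 0.801 for Foxa2 with Foxa3, 0.755 for Hnf4a with Hnf4g, 0.754 for Foxa1 with Foxa2 and 0.722 for Hnf4a with Foxa3. With a pseudocount of 0.1 in place of 1, 3 of the 5 genes were shared for Hnf4a, 2 for Hnf4g and 1 for Foxa1.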

How the data were processed

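The authors deposited 2 tables of 18970 genes in 59 libraries: expected counts from RSEM, of which 54.76% were whole, and TPM. The submitters' processing notes name RSEM and Bowtie 0.12.8. The genome build is not given in the sources used here, nor is the annotation. Columns without a sample numbered 0. Members and gene lists were chosen with earlier results of these data known. Expected counts were rounded and tested with edgeR 4.0.16 (quasi-likelihood, TMM, its low-count filter) in R 4.3.3, with Benjamini-Hochberg adjustment over all genes tested, at 0.05 and no minimum fold. DESeq2 1.42.0 was an alternative. The 2 retinas of T3F were summed in tests. Both tools were tested on simulated data. Sites and animals came from the titles. Besides the members, the text names up to 4 genes of each list, those with the highest mean TPM in the comparison, and the 5 genes most alike each member; some results are not reported here. Alternatives were other scaling, no filter, animal as a block, doubtful libraries left out, and each library left out. Intervals are exact and cover counting error only. RSEM shares reads between similar transcripts, so paralogues may share some.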

Additional observations from a re-analysis of the deposited data

Results flagged for a closer look

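These levels stood out in libraries that entered none of the tests against other sites. Hnf4a had 19.6 TPM in retinal pigment epithelium T3F, 11.5 TPM in testis T424 and 92.3 TPM in the library labelled lung T3F. Foxa1 had 73.7 TPM in bladder T173F and 36.7 TPM in trachea T173F. Foxa2 had 39.0 TPM in trachea T173F, 18.1 TPM in uterus T3F and 29.9 TPM in the library labelled lung T3F, and Foxa3 had 30.9 TPM in trachea T173F and 115 TPM in the library labelled lung T3F. Within small intestine (n = 4), Dixon's Q test flagged no library for any of the 7 genes, but at this size it finds only extreme values. Foxa3, for example, had 50.3 TPM in duodenum T426, against 120.3 to 146 TPM in the other small intestine libraries. Groups of 3 or fewer libraries were not examined in this way.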

How the results depend on the processing

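Of 945 repeats of 56 values (7 genes in 8 comparisons), 873 kept direction and side of the threshold, 21 changed sign with a call in neither, 39 lost the call, 8 gained it and 4 reversed. With 1 library left out at a time, log2 fold changes ran from -5.44 (without pancreas T3F) to 7.0 for Foxa2 and from -6.09 to 6.91 for Foxa3 in pancreas, and from -1.74 (without liver T426) to 7.41 for Hnf4a and from -1.23 to 6.55 for Foxa3 in liver. DESeq2 in place of edgeR called 10947 genes among the 10 sites, and 2882 for duodenum, 3711 for pancreas, 2032 for renal pelvis with 0 of the 7 members, 4011 for small against large intestine, 631 for glandular against non-glandular stomach, 1658 for duodenum against glandular stomach with 2 members, and 86 for cortex against medulla. With animal as a block, members called were 1 in pancreas (337 genes), 0 in renal pelvis, 1 in liver and 0 in small against large intestine (4 genes); the labels do not say that an animal's libraries share anything but the animal.

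Without pancreas T173F and the libraries labelled liver T3F and lung T3F, calls were 3304 for duodenum, 852 for pancreas with 1 member, 2059 for renal pelvis, 2889 for liver and 917 for duodenum against glandular stomach with 1 member. Without the doubtful T426 libraries as well, they were 3514 for duodenum, 821 for pancreas with 1 member, 2846 for liver and 1298 for duodenum against glandular stomach with 3 members. Leaving out 1 library at a time gave 3 to 7 members and 5668 to 12478 genes among the 10 sites, 3 to 6 and 706 to 3314 for duodenum, 0 to 2 and 614 to 7978 for pancreas, 0 to 1 and 422 to 2133 for renal pelvis, 1 to 4 and 605 to 2813 for liver, 2 to 3 and 608 to 3143 for small against large intestine, and 0 and 0 for duodenum against glandular stomach. It was not run for the other stomach and kidney comparisons, which have lone libraries. The causes were not tested. Other scaling or no filter moved no count of calls by over 1.5 times.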
